A study of Mus musculus with 12 samples.

Results

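The matrilins, cartilage oligomeric matrix protein (COMP) and a set of surface-zone or other matrix genes were followed across all treatments of femoral head cartilage explants. The set holds 10 genes, Matn1, Matn2, Matn3, Matn4, Comp, Prg4, Cilp, Cilp2, Clu and Htra1, chosen by symbol among the 34509 symbols of the array. Of these, 9 genes had a probe, 15 probes in all, and Clu had no probe under that symbol and was not analysed here. A probe entered the tests if its detection p was below 0.05 in 4 or more of the 12 arrays, which left 6 of the 10 genes, Matn1, Matn4, Comp, Prg4, Cilp2 and Htra1, with 9 probes, among 14317 symbols kept.

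The cartilage came from 21-day-old TS-4/5∆cat mice, which carry deletions in the catalytic domains of ADAMTS-4 and ADAMTS-5, and every group, the untreated one included, carried both deletions. Explants were left untreated, or received 10 ng/mL IL-1α or 10 µM retinoic acid for 3 days, and each treatment was measured on 4 arrays. In each treatment 2 arrays came from the mouse line Donut (batch 1) and 2 from the line Gertrude (batch 2), so batch and line cannot be told apart. The labels give 4 hips per well and a day in serum before treatment, whereas the study's methods give serum-free culture and 3 unpooled mice per treatment. No label ties an array to an animal, so p-values measure the spread between arrays, which may be technical. The RNA was from whole explants, in which fewer cells of a type and less RNA per cell cannot be told apart.

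Matrilins are adaptor proteins of the cartilage matrix. They carry von Willebrand A domains, assemble through a coiled coil, and link collagen fibrils to aggrecan and to each other. COMP, a member of the thrombospondin family, binds collagens and matrilins, and the surface zone of articular cartilage makes lubricin, the product of Prg4, which lubricates the joint. CILP and CILP2 are secreted glycoproteins of the cartilage matrix, and HTRA1 is a secreted serine protease that can cleave matrix proteins. IL-1α and retinoic acid are both used to provoke loss of aggrecan from cartilage explants.

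The arrays were comparable within a batch and treatment (r from 0.983 to 0.995 across probes) and less alike between batches of a treatment (r from 0.868 to 0.902). Each array detected 13786 to 19485 of the 46632 probes, and the number of arrays limits the precision. Cyp26b1, a retinoic acid target, was 3.94 ± 0.14 (SE) above untreated on the log2 scale with retinoic acid, and Nos2, an IL-1 target, was at least 14.1-fold higher with IL-1α (adjusted p = 1.21e-10 in limma). Nos2 was not detected on any untreated array, so its fold is a bound, taken against the lowest detected signal of each of those arrays or the probe's own where that was higher. For the other checks, Rarb, detected on 1 of 4 untreated arrays, was 2.92 higher with retinoic acid and Lcn2 was 1.04 higher with IL-1α. Under the other treatment, Cyp26b1 rose with IL-1α (0.59, adjusted p = 0.0066 in limma) and Lcn2 fell with retinoic acid (-0.93, adjusted p = 0.0296 in limma). Rarb with IL-1α and Nos2 with retinoic acid did not pass. Cartilage markers were well detected, 8 of 10, with a mean log2 level of 12.67 to 13.24 on the untreated arrays, 11.58 to 12.55 with IL-1α and 9.71 to 10.60 with retinoic acid. Their list includes Matn1 and Comp, and all 8 detected markers fell with retinoic acid, where 18.1% of all tested genes were lower.

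With retinoic acid, Matn1, Matn4, Comp and Prg4 fell, Htra1 rose, and Cilp2 did not pass the test. With IL-1α, Matn1, Matn4 and Cilp2 fell and no gene of the set rose. In all, 4 of the 6 tested genes were lower and 1 was higher with retinoic acid than in untreated explants, where 18.1% of all tested genes were lower and 18.6% higher. With IL-1α 3 of 6 were lower and 0 were higher, where 15% of all tested genes were lower and 15.1% higher. At an unadjusted p under 0.05 in the limma fit, 1 gene, Htra1, was higher with IL-1α and 4 were lower, Comp joining Matn1, Matn4 and Cilp2. Set against IL-1α, retinoic acid left 4 of 6 genes lower and 2 higher, where 16.4% of all tested genes were lower and 16.1% higher. The median log2 difference of the 6 genes was -1.03 for retinoic acid and -0.64 for IL-1α against untreated, where the median of all tested genes was 0.01 in each comparison. Both comparisons share the untreated arrays. A gene stands here for its brightest kept probe. A call is an adjusted p under 0.05 in limma, with the Benjamini-Hochberg method over all 18200 kept probes. The exact permutation tests below are two-sided over 4 against 4 arrays, for which the smallest possible p is 0.0286. They take no account of batch, so an offset between batches widens the groups that they compare.

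**Figure D1:**
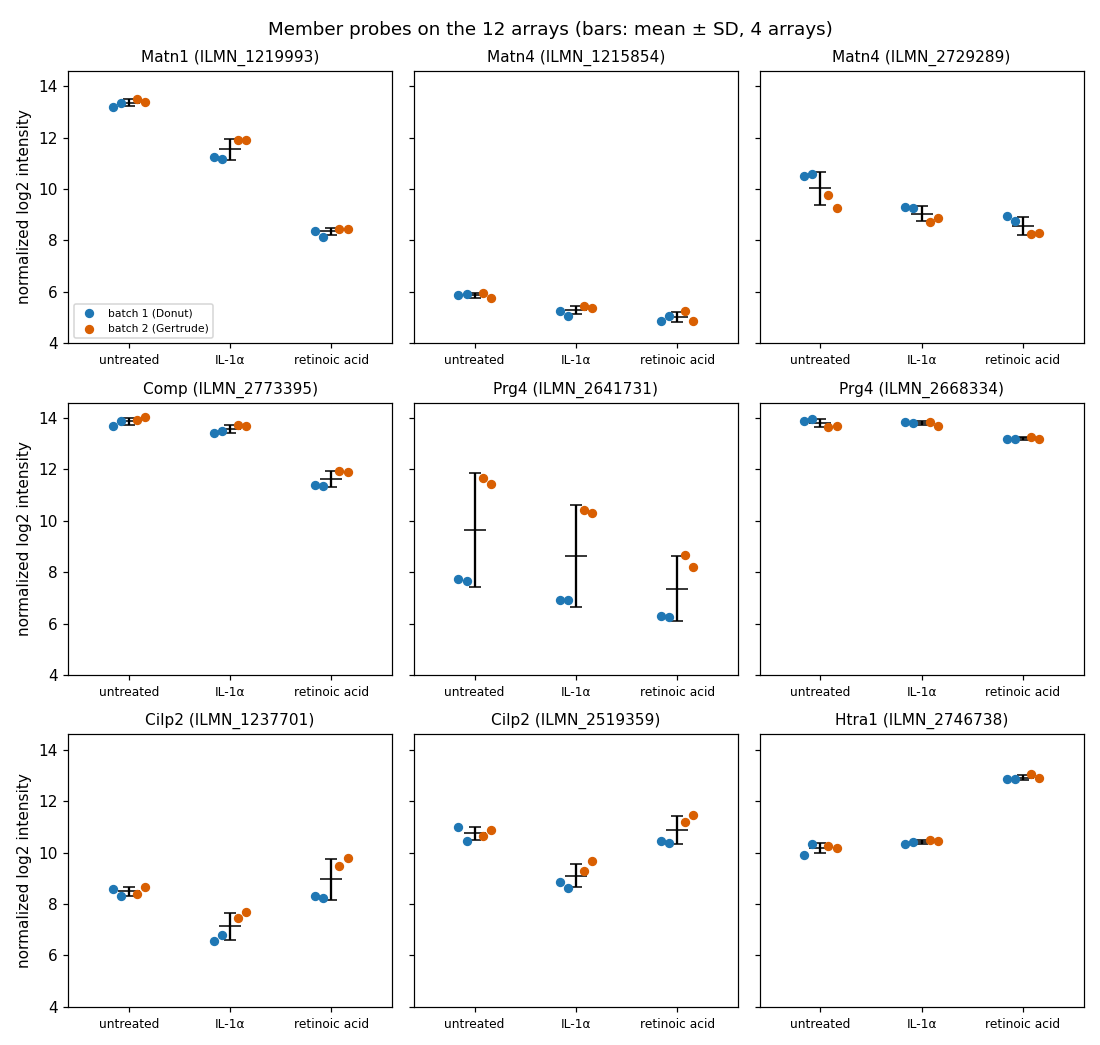
Normalized log2 intensity of the 9 kept probes on the 12 arrays, by treatment, with batch 1 (Donut) in blue and batch 2 (Gertrude) in orange, and black bars for the mean ± SD of 4 arrays. Matn1 steps down from untreated to IL-1α to retinoic acid, Htra1 lies high only in the retinoic acid column, and the lower Prg4 probe in batch 1 is far below batch 2.

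Matn1 encodes matrilin-1, a matrix protein of immature and growth cartilage, and showed the largest treatment differences of the set. On untreated arrays its probe read 13.20 and 13.35 for batch 1 and 13.52 and 13.37 for batch 2, on the normalized log2 scale. With IL-1α it read 11.24 and 11.16 for batch 1 and 11.91 and 11.89 for batch 2, and with retinoic acid 8.38 and 8.15 for batch 1 and 8.46 and 8.43 for batch 2. The 3 groups did not overlap, and the order untreated, IL-1α, retinoic acid held in each batch. Matn1 was 32.1-fold lower with retinoic acid than without treatment (log2 difference -5.00 ± 0.14 SE, adjusted p = 1.18e-10 in limma, exact permutation p = 0.0286). The fall was -5.01 in batch 1 and -5.00 in batch 2, a difference of 0.01 (95% interval -0.42 to 0.44). With IL-1α Matn1 was 3.51-fold lower (log2 difference -1.81 ± 0.14 SE, adjusted p = 1.17e-06 in limma). Retinoic acid explants had 9.15-fold less than IL-1α explants (log2 difference -3.19 ± 0.14 SE, adjusted p = 3.43e-09 in limma). The untreated values lie near the top of the scale, which ends at 14.24, so these sizes may be compressed.

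The bases upstream of the start of Matn1 are shown because this gene moved most of the set. They are from RefSeq (GRCm38.p6, chr4:130944135-130944384, + strand), and hold 62.0% G or C.
Matn1 upstream: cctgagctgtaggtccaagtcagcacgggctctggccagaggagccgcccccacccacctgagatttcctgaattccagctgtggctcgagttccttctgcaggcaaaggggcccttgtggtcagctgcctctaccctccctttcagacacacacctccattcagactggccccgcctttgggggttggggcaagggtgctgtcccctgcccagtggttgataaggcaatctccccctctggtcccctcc
No match to the letters of a nuclear receptor element (AGGTCA), an AP-1 site (TGANTCA) or a SOX site (AACAAT), on either strand, lies in these 250 bases. A match to AGGTCA, shown in capitals below, lies 44 to 49 bases after the start (chr4:130944428-130944433, + strand). The bases shown with it are chr4:130944405-130944434.
Matn1 downstream: tgtctgagttgctgcaaccatgaAGGTCAc
AGGTCA was found in 16.3% of the 32851 RefSeq windows of 250 bases before and 50 bases after a start, AACAAT in 10.7% and TGANTCA in 7.81%. Windows were held for 6 genes of the set (7 windows), of which 1 holds AGGTCA, 1 holds AACAAT and 0 hold TGANTCA. A match is a description of letters and no evidence of binding. The G or C content of the 250 upstream bases of the 7 windows was 54.4% to 65.2%, where the median of all windows was 52.4%.

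Matn4, which encodes matrilin-4, a matrilin with a broad tissue distribution, fell with both treatments by smaller amounts. Its brighter probe (ILMN_2729289) read 10.50 and 10.59 for batch 1 and 9.76 and 9.25 for batch 2 on untreated arrays. With IL-1α it read 9.30 and 9.27 for batch 1 and 8.71 and 8.86 for batch 2, and with retinoic acid 8.93 and 8.77 for batch 1 and 8.25 and 8.31 for batch 2. The retinoic acid group lay wholly below the untreated group, whereas the IL-1α group overlapped it, the untreated arrays of batch 2 being low. Matn4 was 2.76-fold lower with retinoic acid (log2 difference -1.46 ± 0.15 SE, adjusted p = 6.86e-06 in limma, exact permutation p = 0.0286). It was 1.99-fold lower with IL-1α (log2 difference -0.99 ± 0.15 SE, adjusted p = 0.000347 in limma, exact permutation p = 0.0857). Between retinoic acid and IL-1α the difference was -0.47 ± 0.15 (SE), with an adjusted p of 0.0305 in limma and an exact permutation p of 0.143, and this call was lost without any of the retinoic acid replicates of batch 1 (adjusted p = 0.0715 and 0.105), the first of batch 2 (0.0739) or either IL-1α replicate of batch 2 (0.0612 and 0.121).

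A second Matn4 probe (ILMN_1215854) is dim and was detected on 4 of 4 untreated, 2 of 4 IL-1α and 1 of 4 retinoic acid arrays. It read 5.74 to 5.94 untreated, 5.07 to 5.45 with IL-1α and 4.84 to 5.27 with retinoic acid. Its log2 differences from untreated were -0.85 ± 0.12 (SE) with retinoic acid (adjusted p = 0.000116 in limma) and -0.57 ± 0.12 (SE) with IL-1α (adjusted p = 0.00364 in limma). The probe met the detection filter only with its untreated arrays counted, and its undetected treated values lie at background. These sizes are therefore not exact, and they are no separate support for the brighter probe. It did not pass between retinoic acid and IL-1α (-0.28 ± 0.12 SE, adjusted p = 0.0964 in limma).

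Matn2 and Matn3, the remaining matrilins, were at or near background. Of the 3 Matn2 probes, 1 was detected on a single array, an untreated one of batch 2, at 5.69, and the others on none. Neither of the 2 Matn3 probes was detected on any of the 12 arrays. Matrilin-3 is usually rich in cartilage, and an undetected probe gives no statement on its transcript.

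Comp fell with retinoic acid and did not pass the test with IL-1α. On untreated arrays its probe read 13.70 and 13.87 for batch 1 and 13.90 and 14.04 for batch 2. Under IL-1α it read 13.42 and 13.48 for batch 1 and 13.73 and 13.70 for batch 2, which reaches the lower end of the untreated range. With retinoic acid it read 11.38 and 11.34 for batch 1 and 11.92 and 11.88 for batch 2, below every other array. Comp was 4.75-fold lower with retinoic acid than untreated (log2 difference -2.25 ± 0.12 SE, adjusted p = 1.75e-08 in limma) and 3.88-fold lower than with IL-1α (-1.95 ± 0.12 SE, adjusted p = 5.22e-08 in limma). The IL-1α difference from untreated was -0.29 (95% interval -0.55 to -0.04, adjusted p = 0.0784 in limma, exact permutation p = 0.0857) and did not pass. It did without the first untreated replicate of batch 2 (-0.36, adjusted p = 0.0475 in limma), with no background correction (-0.31, adjusted p = 0.0365) and with an offset of 50 (-0.29, adjusted p = 0.0350). The bright values of Comp also lie near the top of the scale.

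**Figure D2:**
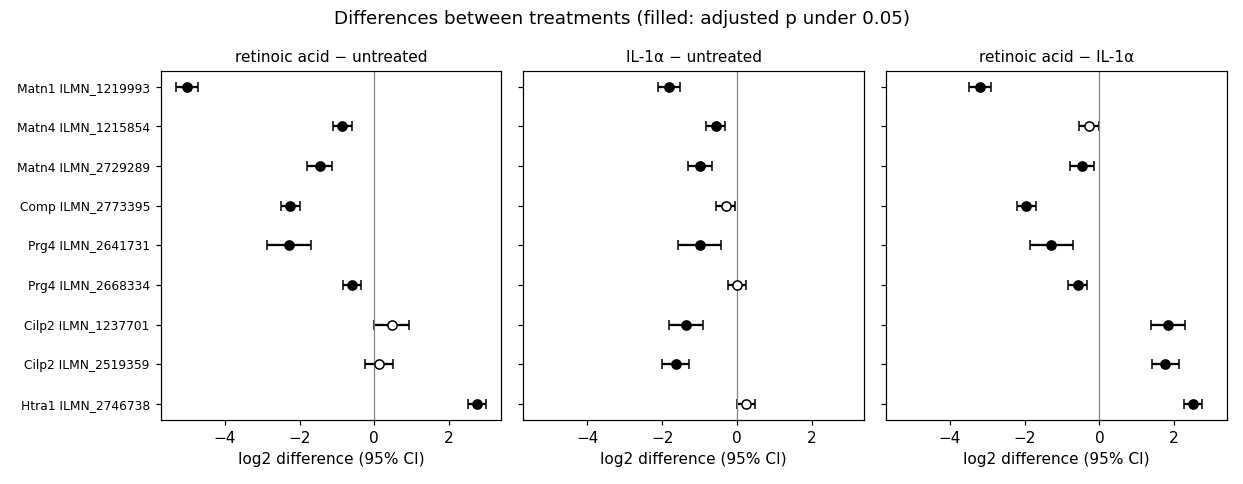
Log2 difference between treatments for each kept probe (horizontal axis, the same in the 3 panels) with its 95% confidence interval, filled where the adjusted p was under 0.05. Matn1 has the largest fall in each panel, from -5.00 with retinoic acid against untreated, and Cilp2 and Htra1 are on the right of 0 for retinoic acid against IL-1α.

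Prg4, which encodes lubricin, fell slightly with retinoic acid by its brighter probe (ILMN_2668334). That probe read 13.87 and 13.98 for batch 1 and 13.65 and 13.68 for batch 2 on untreated arrays. Under IL-1α it read 13.85 and 13.80 for batch 1 and 13.83 and 13.68 for batch 2, within the untreated range. With retinoic acid it read 13.17 and 13.19 for batch 1 and 13.28 and 13.18 for batch 2, below every other array. The fall was 1.51-fold against untreated (log2 difference -0.59 ± 0.11 SE, adjusted p = 0.00118 in limma, exact permutation p = 0.0286), and -0.59 against IL-1α (adjusted p = 0.00139 in limma). In batch 2 alone the fall against untreated did not pass (-0.44, adjusted p = 0.0535 in limma). IL-1α against untreated gave a difference of 0.00 (95% interval -0.25 to 0.24, adjusted p = 0.987 in limma). In a probe this bright a change may be compressed.

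The second Prg4 probe (ILMN_2641731) gave a very different picture, in which the batches stood apart. Without treatment it read 7.75 and 7.66 for batch 1, and 11.67 and 11.45 for batch 2. Under IL-1α it read 6.93 and 6.90 for batch 1 and 10.44 and 10.29 for batch 2, and with retinoic acid 6.28 and 6.25 for batch 1 and 8.68 and 8.20 for batch 2. Every treated array of batch 2 was above every untreated array of batch 1. Among untreated arrays the mean was 14.4-fold higher in batch 2, while the brighter probe was 1.19-fold lower there. As deposited, before any normalization, the second probe read 63.5 to 131.9 in batch 1 and 546.5 to 4830.6 in batch 2, whereas the brighter probe read 6589 to 15513 and 12245 to 17573. Over all treatments the second probe was 8.92-fold higher in batch 2 than in batch 1 (log2 difference 3.16 ± 0.21 SE, adjusted p = 1.42e-09 in limma) and the brighter probe was not (-0.09 ± 0.09 SE, adjusted p = 0.344 in limma).

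Because of that offset, the groups of the second Prg4 probe overlap between treatments although each batch shows a fall. The log2 difference from untreated was -2.28 ± 0.27 (SE) with retinoic acid (adjusted p = 2.23e-05 in limma, exact permutation p = 0.171) and -0.99 ± 0.27 (SE) with IL-1α (adjusted p = 0.0141 in limma, exact permutation p = 0.514). The retinoic acid fall was -1.44 in batch 1, where the probe's values lay nearer background, and -3.12 in batch 2. Without the first or the second untreated replicate of batch 2, the adjusted p for IL-1α was 0.0573 or 0.0707. Against IL-1α, retinoic acid explants were lower by this probe in both batches (-0.65 and -1.92). Its batch difference and the mouse line cannot be told apart.

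**Figure D3:**
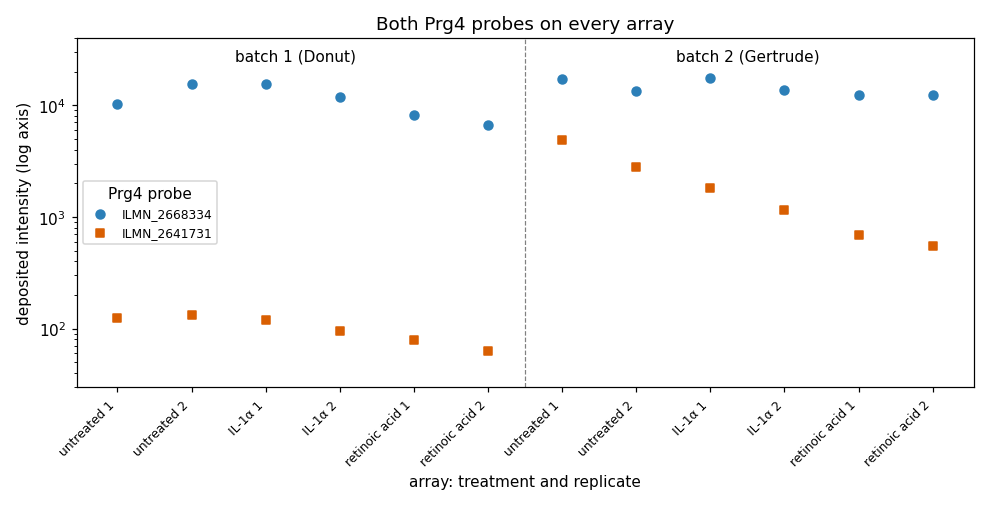
Deposited intensity (log axis) of both Prg4 probes on each of the 12 arrays, ordered by batch, treatment and replicate. The brighter probe (circles) stays between 6589 and 17573 throughout, while the second probe (squares) is at 63.5 to 131.9 in batch 1 and 546.5 to 4830.6 in batch 2.

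Cilp2, a gene of the CILP family, fell with IL-1α and did not pass with retinoic acid. Its brighter probe (ILMN_2519359) read 11.00 and 10.45 for batch 1 and 10.65 and 10.89 for batch 2 on untreated arrays. With IL-1α it read 8.86 and 8.62 for batch 1 and 9.27 and 9.67 for batch 2, below every other array. With retinoic acid it read 10.46 and 10.37 for batch 1 and 11.20 and 11.45 for batch 2, below the untreated mean in batch 1 and above it in batch 2. Cilp2 was 3.12-fold lower with IL-1α than untreated (log2 difference -1.64 ± 0.17 SE, adjusted p = 1.68e-05 in limma, exact permutation p = 0.0286) and its retinoic acid level exceeded its IL-1α level 3.40-fold (1.76 ± 0.17 SE, adjusted p = 3.85e-06 in limma). Retinoic acid against untreated gave 0.12 (95% interval -0.24 to 0.49, adjusted p = 0.618 in limma), with -0.31 in batch 1 and 0.55 in batch 2.

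The second Cilp2 probe (ILMN_1237701) gave the same directions. It read 8.60 and 8.31 for batch 1 and 8.40 and 8.67 for batch 2 untreated, 6.56 and 6.81 for batch 1 and 7.46 and 7.68 for batch 2 with IL-1α, and 8.31 and 8.24 for batch 1 and 9.48 and 9.81 for batch 2 with retinoic acid. The IL-1α values were below every other array, and the retinoic acid values of batch 2 were above every other array. The log2 difference from untreated was -1.36 ± 0.21 (SE) with IL-1α (adjusted p = 0.000481 in limma) and 0.47 with retinoic acid (95% interval 0.00 to 0.93, adjusted p = 0.112 in limma). Without the first untreated replicate of batch 1 the retinoic acid difference passed (0.70, adjusted p = 0.0182 in limma). Retinoic acid against IL-1α gave 1.83 ± 0.21 (SE, adjusted p = 2.35e-05 in limma).

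The upstream bases of Cilp2 are shown because it was lowest with IL-1α and its retinoic acid difference had opposite signs in the batches. For the brighter probe that difference between batches did not pass (0.86, adjusted p = 0.14 in limma). They are from RefSeq (GRCm38.p6, chr8:69887393-69887642, - strand), with a match to the SOX letters AACAAT in capitals, from base -241 to base -236 relative to the start.
Cilp2 upstream: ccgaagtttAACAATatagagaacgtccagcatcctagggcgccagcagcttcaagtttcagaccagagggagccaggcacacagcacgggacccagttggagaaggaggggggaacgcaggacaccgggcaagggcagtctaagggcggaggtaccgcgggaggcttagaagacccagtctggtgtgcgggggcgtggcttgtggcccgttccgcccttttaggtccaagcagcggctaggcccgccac
The single probe of Cilp, its relative, was detected on 1 array, an untreated one of batch 2, at 4.88, and was not tested.

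Htra1 was the only tested gene of the set that rose with retinoic acid over all 12 arrays. Without treatment its probe read 9.92 and 10.34 for batch 1, and 10.27 and 10.18 for batch 2. IL-1α gave 10.32 and 10.41 for batch 1 and 10.51 and 10.44 for batch 2, and retinoic acid gave 12.85 and 12.88 for batch 1 and 13.06 and 12.89 for batch 2. The retinoic acid arrays lay far above the others, and the IL-1α range overlapped the untreated range by a single value. Htra1 was 6.70-fold higher with retinoic acid than untreated (log2 difference 2.74 ± 0.11 SE, adjusted p = 1.67e-09 in limma, exact permutation p = 0.0286) and 5.66-fold above its level with IL-1α (2.50 ± 0.11 SE, adjusted p = 4.00e-09 in limma). The rise was 2.74 in batch 1 and 2.75 in batch 2. IL-1α against untreated gave 0.24 (95% interval 0.00 to 0.48, adjusted p = 0.117 in limma, exact permutation p = 0.0571).

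The upstream bases of Htra1 are shown because it moved against the matrilins. They are from RefSeq (GRCm38.p6, chr7:130935953-130936202, + strand) and hold no match to the 3 sets of letters on either strand.
Htra1 upstream: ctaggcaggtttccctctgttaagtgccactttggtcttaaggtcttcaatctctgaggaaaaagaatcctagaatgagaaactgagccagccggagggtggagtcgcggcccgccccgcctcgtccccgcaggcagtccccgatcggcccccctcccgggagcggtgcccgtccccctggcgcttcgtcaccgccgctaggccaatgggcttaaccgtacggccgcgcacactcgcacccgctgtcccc

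Treatment differences were set side by side in the batches. At the level of genes, 0 of the 6 passed the limma test of a difference between batches in any of the 3 comparisons. Of all tested genes, 2.7% passed for retinoic acid against untreated, 4.57% for IL-1α against untreated and 8.91% for retinoic acid against IL-1α. At an unadjusted p under 0.05 in that limma fit, the counts were 1 (Cilp2), 3 (Cilp2, Matn1 and Matn4) and 1 (Matn1). In simulated data the test, for retinoic acid against IL-1α, recovered 19% of batch differences of 1 on the log2 scale. It recovered 86% of those of 2, so smaller differences can be missed. Between the batches themselves 3 of 6 genes were higher in batch 2, Matn1 by 0.35, Comp by 0.33 and Cilp2 by 0.56 on the log2 scale, and 1, Matn4, was lower (-0.70), where 29.7% of all tested genes were higher and 46.3% lower. The batch comparison was added after the data were seen.

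**Figure D4:**
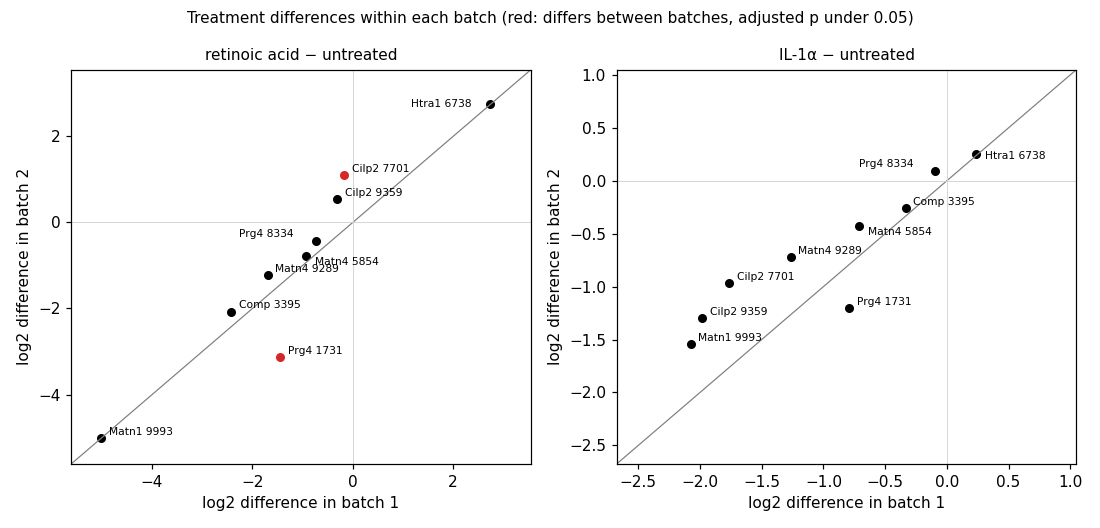
Log2 difference from untreated in batch 1 (horizontal) and batch 2 (vertical) for each kept probe, labelled by gene and the last digits of its probe name, for retinoic acid (left) and IL-1α (right), with equality as a grey line. Matn1 and Htra1 lie on the line for retinoic acid, while the second probes of Prg4 (-1.44 and -3.12) and Cilp2 (-0.18 and 1.11), in red, lie off it.

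Other genes of the same matrix followed lists written with earlier results of these data known. Of 11 partners of matrilins and COMP, which are cartilage collagens, aggrecan, link protein, decorin, biglycan and fibronectin, 9 fell with retinoic acid and 0 rose, with a median log2 difference of -1.69. With IL-1α 6 fell and 0 rose, with a median of -0.82. Of all tested genes, 18.1% were lower and 18.6% higher with retinoic acid, and 15% lower and 15.1% higher with IL-1α. Acan, the aggrecan core protein, was -4.22 ± 0.15 (SE) with retinoic acid and -1.56 ± 0.15 (SE) with IL-1α. Hapln1, link protein, detected on 2 of 4 retinoic acid arrays, was -3.33 and -1.25, and Col9a1, a chain of collagen IX, -2.89 and -1.19. Col11a1, a chain of collagen XI, detected on 3 of 4 retinoic acid arrays, was -2.83 and -0.82. Each of the 4 genes had the same order as Matn1, with the lower level under retinoic acid, and each passed the test between retinoic acid and IL-1α.

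Among 11 thrombospondins and matrix genes with von Willebrand A domains, the families of COMP and the matrilins, 7 were kept. With retinoic acid 5 fell and 1 rose (median -1.94), where 18.1% of all tested genes were lower and 18.6% higher. With IL-1α 2 fell and 0 rose (median -0.33), where 15% of all tested genes were lower and 15.1% higher. Thbs3, a close relative of Comp, was -2.70 ± 0.18 (SE) with retinoic acid and fell with IL-1α by smaller amounts (-1.40 in batch 1 and -0.61 in batch 2, adjusted p = 0.00116 in limma over both). Vit, vitrin, detected on 2 of 4 retinoic acid arrays, was -2.32 and -1.17. The collagen VI chains Col6a3 and Col6a2 fell with retinoic acid (-2.26 and -1.94), and their IL-1α differences, -0.33 and 0.30, did not pass.

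Of 13 other superficial zone and articular genes, 11 were kept, and they moved both ways. With retinoic acid 3 rose and 4 fell (median -0.21), where 18.6% of all tested genes were higher and 18.1% lower. With IL-1α 3 rose and 3 fell (median -0.23), where 15.1% of all tested genes were higher and 15% lower. Both medians are the same when undetected genes are set at their bound. Sfrp5, a secreted WNT antagonist, was detected on all 4 untreated arrays and on none with retinoic acid, and was at least 9.64-fold lower there (adjusted p = 5.51e-09 in limma). With IL-1α it was detected on 1 of 4 arrays and fell as well (-3.55 ± 0.19 SE), a size that is not exact since the undetected values lie at background. Taken the same way, without a bound, the retinoic acid difference was -3.99, so the IL-1α fall was not the larger. Retinoic acid against IL-1α did not pass for Sfrp5 (-0.44, adjusted p = 0.0915 in limma). Vcam1, a cell adhesion molecule, rose with retinoic acid (3.22 ± 0.21 SE), and its IL-1α value of -0.42 did not pass. Dkk3 rose with retinoic acid (1.47) and fell with IL-1α (-0.92). Col22a1, a collagen of tissue junctions, was -1.21 with retinoic acid. It was not detected on any IL-1α array, and was there at least 3.67-fold lower than untreated (adjusted p = 1.67e-07 in limma) and at least 1.59-fold lower than with retinoic acid (adjusted p = 0.000133 in limma).

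The other HtrA proteases gave values of both signs. Htra3, a secreted relative, was 1.04 ± 0.12 (SE) with retinoic acid and -0.84 ± 0.12 (SE) with IL-1α, both past the test. Htra4 was -1.50 and -1.58. Of the 3 genes, 1 rose and 1 fell with retinoic acid, and 1 rose and 2 fell with IL-1α. Of all tested genes, 18.6% were higher and 18.1% lower with retinoic acid, and 15.1% higher and 15% lower with IL-1α. Counts in lists of 3 genes are given as a description. Sox9, the transcription factor that drives cartilage matrix genes, was -1.91 ± 0.12 (SE) with retinoic acid and -0.44 ± 0.12 (SE) with IL-1α, and of the SOX trio 2 fell with retinoic acid and 1 with IL-1α, with 0 higher in either.

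**Figure D5:**
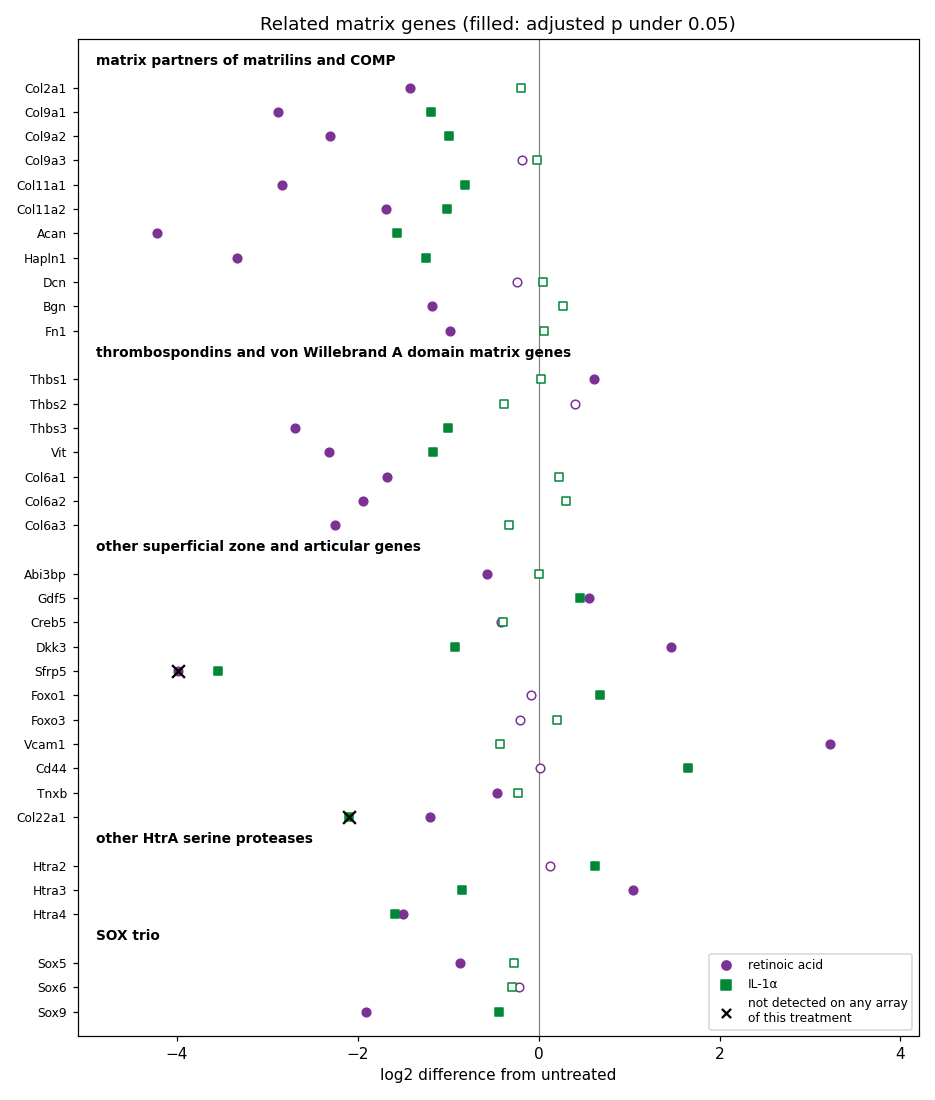
Log2 difference from untreated for the kept genes of 5 related lists, circles for retinoic acid and squares for IL-1α, filled where the adjusted p was under 0.05. Acan reaches -4.22 and Vcam1 3.22 with retinoic acid, and crosses mark Sfrp5 with retinoic acid and Col22a1 with IL-1α, which were not detected on any array of that treatment, so that their sizes are not exact.

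Some markers of other cell types moved with the treatments as well. Of all tested genes, 18.6% were higher and 18.1% lower with retinoic acid, and 15.1% higher and 15% lower with IL-1α. In lists this short, a single call is near those shares and is given as a description. Of 5 macrophage markers 4 rose and 0 fell with retinoic acid, and 1 rose and 3 fell with IL-1α, with a mean level of 7.42 to 7.57 untreated, 6.58 to 7.32 with IL-1α and 8.15 to 8.45 with retinoic acid. Among them Csf1r was detected on 1 untreated, 1 IL-1α and 2 retinoic acid arrays, and Adgre1 on 2 of 4 arrays of each treatment. Part of their values therefore lies at background. Of 6 kept neutrophil and marrow markers 4 fell with retinoic acid and 0 passed with IL-1α, with mean levels of 9.82 to 10.56 untreated, 10.60 to 10.86 with IL-1α and 8.38 to 9.92 with retinoic acid. Of 4 tendon markers all fell with retinoic acid and 3 with IL-1α, with mean levels of 7.27 to 7.78, 6.51 to 6.69 and 5.81 to 6.07 in the same order. Of 4 fibroblast and synovium markers 3 fell and 1 rose with retinoic acid, and all 4 fell with IL-1α. Of 4 endothelial markers 1 rose with retinoic acid and 3 fell with IL-1α. Of 4 kept bone markers 3 fell with each treatment, of 2 osteoclast markers 2 rose with retinoic acid and 1 with IL-1α, and of 3 erythroid markers 0 passed with either. Of 2 muscle markers 1 fell with retinoic acid and 2 with IL-1α, and the only kept adipocyte marker, Adipoq, fell with both. Of 5 superficial zone markers only Prg4, counted by its brighter probe, and Abi3bp were kept. Both fell with retinoic acid and neither passed with IL-1α, whereas the second Prg4 probe did pass with IL-1α (-0.99, adjusted p = 0.0141 in limma). The part of these cells in the values of the matrilins, Comp, Prg4, Cilp2 and Htra1 was not tested.

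The genes whose pattern was most like each member were found by Pearson r over the 12 arrays after each batch's mean was removed, among the 18198 or 18199 kept probes of other symbols. They were Glt8d2, Rab17 and Acan for Matn1 (r from 0.997 to 0.998), and Nrtn, Serpina1b and Prkcz for Matn4 (0.987 to 0.989). For Comp they were 9130404D14Rik, Aldh4a1 and Faah (0.995 to 0.996), and for Prg4 Ninj2, Col6a1 and Fn1 (0.978 to 0.983). For Cilp2 they were LOC100047339, Igfbp5 and Pcdh12 (0.977 to 0.986), and for Htra1 Fbxo31, Mmp11 and Gdpd5 (0.993 to 0.994). The 12 arrays share 3 treatments, so the values are a description and carry no p.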

How the data were processed

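Femoral head cartilage RNA was measured on 12 Illumina bead arrays. For both batches together the authors deposited 1 table of linear probe intensities, neither background-corrected nor normalized. The deposited detection p-value column rises with intensity, so it was read as a score and subtracted from 1 to give the detection p-value. Every value column was matched to an array by its label, and 0 were left over. Limma is named in the submitters' processing notes.

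In R 4.3.3 with limma 3.58.1, neqc estimated background from the detection p-values, quantile normalized and added an offset of 16 before log2. Probes detected on fewer than 4 arrays were removed (28432 of 46632). The linear model (lmFit, eBayes) had treatment and a 4-level factor for batch and replicate, as in the study's methods, and p-values were adjusted by Benjamini-Hochberg over all kept probes. A model of treatment by batch tested differences between batches, and the scripts were tested on simulated data.

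The genes and lists (matrix partners, thrombospondin and von Willebrand A genes, superficial zone genes, HtrA proteases, SOX trio, hypertrophy, cell type markers and treatment checks) were chosen with earlier results of these data known. From each list other than the set, at most 4 genes past 2-fold at an adjusted p under 0.05 in any comparison are named. Cell type markers are given by counts, with single markers named where detection or batch limits the count. Alternatives changed the background correction, normalization, offset, detection filter, replicate block and the arrays included. Promoter bases are from RefSeq (GRCm38.p6), held for 6 genes of the set.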

Additional observations from a re-analysis of the deposited data

Results flagged for a closer look

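In 3 cases a probe's treatment difference was not the same in the 2 batches, by the limma test of treatment by batch. For the second Prg4 probe (ILMN_2641731), the retinoic acid difference from untreated changed by -1.68 on the log2 scale from batch 1 to batch 2 (adjusted p = 0.00100 in limma), and its difference from IL-1α changed by -1.27 (adjusted p = 0.00395 in limma). The brighter Prg4 probe did not pass either test (0.30, adjusted p = 0.519, and 0.12, adjusted p = 0.757, in limma). On the retinoic acid arrays of batch 1 the second probe read 6.28 and 6.25. The lowest detected signals of those arrays were 5.36 and 5.34, so its fall in batch 1 may be compressed. For the second Cilp2 probe (ILMN_1237701), the retinoic acid difference from untreated was 1.29 higher in batch 2 (adjusted p = 0.00917 in limma), where the brighter probe gave 0.86 (adjusted p = 0.14 in limma). Of 27 groups of 4 arrays examined for a value apart from the others, 0 passed Dixon's limit. Batch and mouse line cannot be told apart, and a cause was not tested.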

How the results depend on the processing

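Of the recomputed counts of genes past the test, 136 stayed within 1.5 times of the reported count and 2 did not: in batch 2 alone 2 genes, Cilp2 and Htra1, were higher with retinoic acid than untreated, and with no detection filter 1 gene, Htra1, was higher with IL-1α. Of the values of single probes, 746 kept direction and call, 10 became calls, 19 lost their call and 23 changed sign. The cause was not tested.
The replicate block came from the study's methods. Deviations of same-numbered arrays correlated between -0.11 and 0.39, the highest being IL-1α with retinoic acid in batch 2. With 2 arrays per treatment and batch, these values cannot decide whether same-numbered arrays share an animal or a day. With batch as the block and no replicate block, called probes among all probes went from 6436 to 6752 for retinoic acid against untreated, from 5334 to 5702 for IL-1α and from 5656 to 5938 between the treatments, and no call on the set changed. With treatment alone, which drops batch as well as the replicate block, they were 2215, 1327 and 1984. In that fit the second Prg4 probe lost its 3 calls (adjusted p = 0.299, 0.827 and 0.732 in limma) and the brighter Matn4 probe its calls for IL-1α (0.0761) and between treatments (0.496).
Sign changes were all in values that did not pass the test. Retinoic acid against untreated was -0.18 for the second and -0.31 for the brighter Cilp2 probe in batch 1 alone, and leaving out single arrays gave -0.0186 to 0.31 for the brighter probe. For the brighter Prg4 probe with IL-1α, leaving out single arrays gave -0.0689 to 0.0583, and batch 2 alone 0.0903.
The other sign changes were in differences between batches. For Matn1 with retinoic acid these were -0.0112 with no background correction and -0.0064 with an offset of 50. With median scaling they were -0.38 for the dim Matn4 probe and -0.39 for Htra1 with retinoic acid, -0.29, -0.0126 and -0.55 for dim Matn4, Comp and Htra1 with IL-1α, and 0.32, 0.48 and 0.16 for Matn1, brighter Matn4 and Htra1 between treatments. With normalization within each batch they were -0.37 and -0.11 for dim Matn4 and Htra1 with retinoic acid, -0.0659 and -0.0191 with IL-1α, and -0.0383 for brighter Cilp2 between treatments. Median scaling moved the median of all genes with retinoic acid to 0.13 from 0.01. Bright probes near the top of the scale and probes near background limit the sizes.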

Other observations

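Growth plate hypertrophy genes, 7 of 8 kept, mostly fell with both treatments. With retinoic acid 5 fell and 1 rose (median log2 difference -1.44), where 18.1% of all tested genes were lower and 18.6% higher. With IL-1α 5 fell and 0 rose (median -1.71), where 15% of all tested genes were lower and 15.1% higher. Ibsp, which encodes bone sialoprotein, was -3.06 with retinoic acid and -2.45 with IL-1α, and Col10a1, the collagen of hypertrophic cartilage, was -1.99 and -1.71. Ihh, the signal that paces chondrocyte maturation, was -1.80 and, detected on 2 of 4 IL-1α arrays, -2.40, lower with IL-1α than with retinoic acid by 0.60 (adjusted p = 0.00483 in limma). Alpl, alkaline phosphatase, was -0.72 and -1.74.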
